A study of Mus musculus with 5 samples.

Results

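Cathepsins and cystatins are the proteases of the lysosome and the small proteins that block them. The set described here holds 10 of the 27998 genes in the deposited tables, picked by symbol. It has 7 cathepsin genes (Ctsb, Ctsc, Ctsd, Ctsh, Ctsl, Ctss and Ctsz) and 3 cystatin genes (Cst3, Cst6 and Cstb). Each was followed by marker-gated cell type and by library, to see which protease prevails in macrophages, dendritic cells and keratinocytes.

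The series profiled cells of the dermis of C57BL/6 mice, sorted live and CD45+, on a droplet platform that tags the 3′ ends of transcripts with molecular identifiers (UMIs). There were 5 libraries, 1 per group: P50_Depil5D, whose title is read as depilated skin at 5 days, and undepilated skin in telogen, the resting phase of the hair cycle, at postnatal days 45 (P45), 50 (P50), 63 (P63) and 80 (P80). The labels give no allele, transgene or drug, and do not say how many mice went into a library or whether day 50 of the depilated library is the day of depilation or of collection. With 1 library per group, p-values below come only from differences between cell types seen over the 5 libraries.

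Cathepsins B, C, H, L, S and Z are papain-like cysteine proteases, and cathepsin D is an aspartic protease. All are made as inactive proforms and work best in the acid of endosomes and lysosomes, where they digest engulfed cells and proteins. In antigen-presenting cells cathepsin S trims the invariant chain that guards MHC class II molecules, a step that cathepsin L takes in the thymic cortex. Cystatin C (Cst3) is secreted and blocks cysteine cathepsins outside cells, stefin B (Cstb) guards the cytosol and nucleus, and cystatin M/E (Cst6) is an epidermal inhibitor whose loss in mice leads to faulty cornification and follicles. Cystatins do not block cathepsin D.

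A library held between 1032621 UMIs (P80) and 7491878 UMIs (P45), and 6141 of 6223 barcodes were kept. The gates assigned 439 macrophages, 516 dendritic cells and 860 keratinocytes. In the macrophage gate 7 of the 10 leading genes by fold were its own markers, led by Ccl8, Pf4 and C1qc, and in the dendritic cell gate 7 of 10, led by Ccl17, Ccl22 and Ccr7. Cells entered a gate on its markers, so the lead of those markers follows from the gating and does not test the identity of the cells. The CD45 gene Ptprc was at 288 UMIs per 1000000 UMIs (CPM) in macrophages, 296 CPM in dendritic cells and 20.7 CPM in keratinocytes, against 567 CPM in T cells, so the keratinocytes carried little of the RNA of the protein they were sorted on. Barcodes were shared between libraries by 830 kept cells, of which 507 were keratinocytes, 39 dendritic cells and 17 macrophages. In all 639 pairs of copies with a gated keratinocyte and a gated partner, both copies fell in the keratinocyte gate, so the keratinocyte sums of the libraries are not independent of each other. The SDs, SEs and p-values given below for keratinocytes treat these sums as independent, so they can understate the spread. Results are therefore also given without such cells. P63 and P80 stood apart in their ribosomal protein genes, with a median of 18.5% and 25.0% of those UMIs on pseudogenes, against 3.51% in P50_Depil5D, 7.07% in P45 and 3.70% in P50. Whether that difference plays a part in the library ratios below was not tested.

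Cathepsin B prevailed in macrophages and, at a far lower level, in keratinocytes, whereas cathepsin S prevailed in dendritic cells, judged by transcript UMIs. In macrophages Ctsb held 37.6% of the UMIs of the 7 cathepsin genes (95% Clopper-Pearson interval 36.5% to 38.7%, counting error only), followed by Ctss at 24.1%, Ctsc at 12.4% and Ctsd at 9.75%. In dendritic cells Ctss held 43.6%, followed by Ctsh at 16.3%, Ctsz at 14.8% and Ctsb at 12.5%, while Ctsd made up 1.54% and Ctsl 0.168%. In keratinocytes Ctsb held 48.5%, Ctsd 18.7% and Ctsh 17.1%, and Ctss only 2.67%. UMIs of this kind mark transcript ends, so levels of different genes were compared without division by length.

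The same cathepsin led a class in each library, while the places below it changed between libraries. In macrophages the share of Ctsb was 38.1% in P50_Depil5D and 34.3%, 42.6%, 39.7% and 45.6% in P45, P50, P63 and P80, and it exceeded Ctss in 5 of 5 libraries by a mean log2 ratio of 0.72 (lowest 0.37, highest 1.09). In dendritic cells the share of Ctss was 46.5% in P50_Depil5D and 46.1%, 35.8%, 54.5% and 39.5% in P45, P50, P63 and P80, with a mean log2 ratio over Ctsz, the next by mean CPM, of 1.505 (lowest 0.75, highest 2.18). In keratinocytes the share of Ctsb was 48.8% in P50_Depil5D and 47.2%, 47.6%, 53.7% and 45.5% in P45, P50, P63 and P80, with a mean log2 ratio over Ctsd of 1.26 (lowest 0.95, highest 1.64). The leading and next genes were picked on these same libraries, so these ratios are a description. The exact two-sided sign-flip permutation test set up for them gave p = 0.063 in each class, the smallest p that 5 libraries allow, and adds nothing to it. Under Leiden clusters Ctsc was next to Ctsb in macrophages, at a mean log2 ratio of 1.33, and Ctsb stood above Ctss by 1.547. The Leiden classes hold other cells than the gates. Their macrophages were the cluster of 243 cells led by Ccl8, Pf4 and Cd209f. A cluster of 317 cells with Ngp, S100a9 and Trem2 among its leading genes was named neutrophil. Their dendritic cells were a wider set, with 848 cells in the largest cluster alone, against 516 gated. With cells gated instead by their number of distinct markers, Ctsb led in macrophages in 4 of 5 libraries, and it trailed Ctss in the remaining library by 0.096 on the log2 scale.

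**Figure D1:**
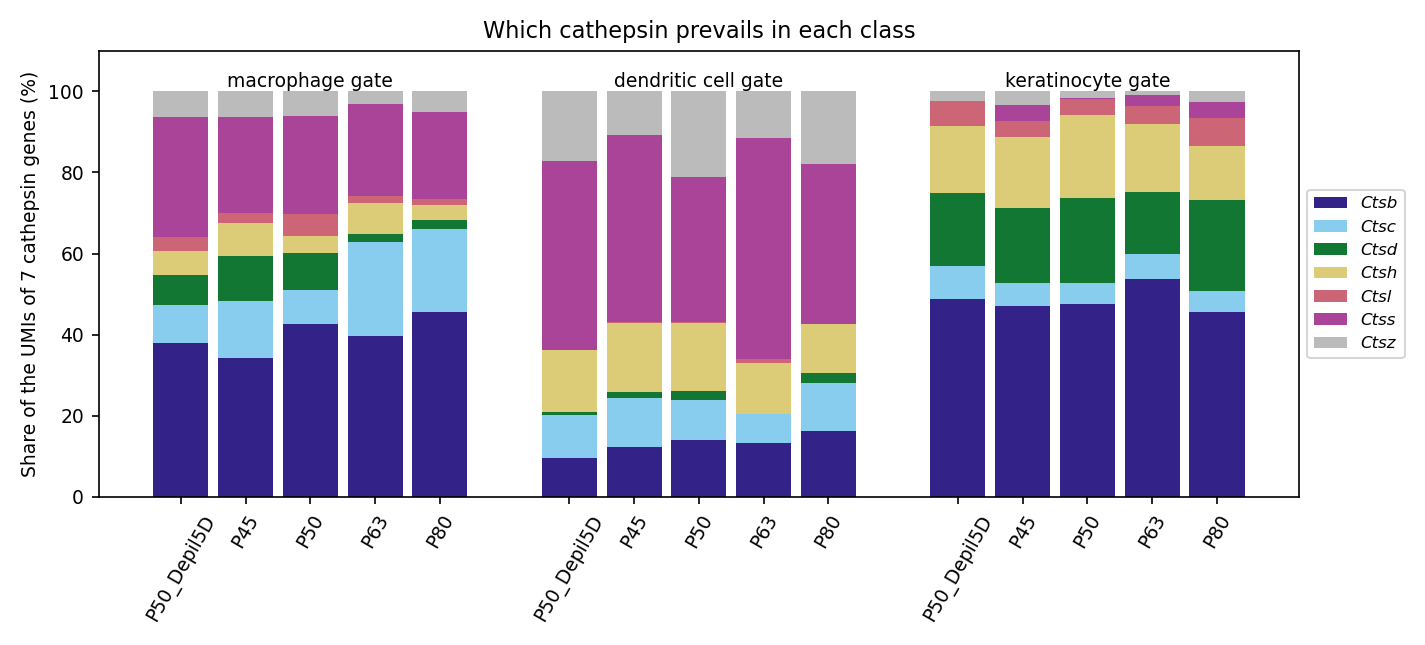
Share of the UMIs of 7 cathepsin genes (y axis, percent) in each gated class and library (x axis); each colour is a gene and each bar 1 library. Ctsb, at the foot of the bars, takes 34.3% to 45.6% in macrophages and 45.5% to 53.7% in keratinocytes, and Ctss takes 35.8% to 54.5% in dendritic cells.

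Ctss also led in 2 other myeloid gates. It made up 40.7% of cathepsin UMIs in 106 Langerhans-like cells and 39.0% in 218 monocyte-like cells. In 1284 T cells, by contrast, Ctsd held 37.8% and Ctsc 30.6%, where Ctsc encodes the enzyme that activates granzymes in cytotoxic lymphocytes.

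The promoters of the genes that set these classes apart are shown for Ctsd and Ctsl, which macrophages expressed far above dendritic cells, and for Ctss, which both shared. The sequences are from RefSeq on GRCm38.p6, from 250 bases before to 50 after the start that RefSeq gives for the gene, each 5′ to 3′ on the gene's strand, and 6 of the 10 genes had an entry. Capitals mark matches, on either strand, to CACGTG (an E-box of the kind bound by TFEB and related factors, which drive lysosomal genes), the motif of interferon regulatory factors (GAAA, any 2 bases, then GAAA again) or GAGGAAGT (PU.1, the myeloid factor encoded by Spi1).
Ctsd, chr7:142387778-142388077, minus strand: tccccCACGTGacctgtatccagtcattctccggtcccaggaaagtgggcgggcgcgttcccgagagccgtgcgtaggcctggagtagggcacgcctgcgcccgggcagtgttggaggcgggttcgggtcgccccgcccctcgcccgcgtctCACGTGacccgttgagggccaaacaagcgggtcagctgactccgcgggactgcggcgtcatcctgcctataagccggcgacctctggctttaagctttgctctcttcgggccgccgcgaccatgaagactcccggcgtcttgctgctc
Ctsl, chr13:64370471-64370770, minus strand: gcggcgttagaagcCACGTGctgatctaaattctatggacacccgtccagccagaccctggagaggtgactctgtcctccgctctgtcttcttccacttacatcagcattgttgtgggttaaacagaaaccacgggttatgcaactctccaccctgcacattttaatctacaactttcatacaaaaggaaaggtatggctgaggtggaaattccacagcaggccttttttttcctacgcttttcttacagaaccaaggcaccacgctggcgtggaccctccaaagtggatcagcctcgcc
Ctss, chr3:95526536-95526835, plus strand: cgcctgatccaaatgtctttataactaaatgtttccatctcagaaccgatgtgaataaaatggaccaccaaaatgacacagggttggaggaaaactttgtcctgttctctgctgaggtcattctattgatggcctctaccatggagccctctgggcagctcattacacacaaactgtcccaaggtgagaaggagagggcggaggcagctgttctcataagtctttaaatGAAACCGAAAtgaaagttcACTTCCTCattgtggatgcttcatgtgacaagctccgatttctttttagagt
Ctsd held 2 CACGTG matches and Ctsl 1, while 7.15% of 32851 promoters of the same length held at least 1. Ctss held 1 match to the interferon regulatory factor motif and, on the opposite strand, 1 to GAGGAAGT, motifs present in 3.44% and 3.2% of promoters. Ctsc, also higher in macrophages than in dendritic cells, held 0 matches to CACGTG and 1 to GAGGAAGT. Ctsz and Cst3 held none of these 3 motifs nor TGANTCA (AP-1, present in 7.81%). RefSeq's start coincides with that of the gene position given below for Ctss. For Ctsl and Ctsd it lies inside the longer gene model whose position is given below, so that the Ctsl window falls wholly, and the Ctsd window mostly, within that model. These matches describe letters in a window and were not tested as binding sites.

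Ctsb, on chr14:63122462-63145923 (plus strand), encodes a broad endo- and exopeptidase of the lysosome. In macrophages it stood at 2194 CPM in P50_Depil5D and at 2380, 4241, 1794 and 2065 CPM in P45, P50, P63 and P80. In dendritic cells it stood at 242 CPM in P50_Depil5D and at 282, 380, 268 and 339 CPM in P45, P50, P63 and P80. The groups did not overlap, and every macrophage value was over 4 times the highest dendritic cell value. The means were 2535 ± 977 CPM in macrophages, 302 ± 55.8 CPM in dendritic cells and 207 ± 19.7 CPM in keratinocytes (SD, n = 5 libraries each). The log2 fold change of macrophages over dendritic cells was 2.73 (SE 0.21, adjusted p = 1.18e-15), and higher in 5 of 5 libraries. Adjusted p-values here and below are from edgeR's quasi-likelihood test on UMI sums per class and library with library as a block, with Benjamini-Hochberg adjustment over 4968 genes.

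Of the 10 genes, 5 were higher in macrophages than in dendritic cells (Ctsb, Ctsc, Ctsd, Ctsl and Cstb) and 1 was lower (Cst3), where 7.75% of the genes tested were higher and 8.98% lower. The median log2 fold change of the 10 was 0.47, beside −0.03 over all genes tested. All 10 passed the filter on low counts. With DESeq2's size factors in place of TMM the median over all genes was 0.08, and 57.4% of the genes called were higher in macrophages in place of 46.3%, but each of the 10 kept its direction and its call.

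Ctsl, on chr13:64359337-64370890 (minus strand), encodes a strong endopeptidase. It was present in macrophages at 208 CPM in P50_Depil5D and at 160, 546, 73.2 and 66.6 CPM in P45, P50, P63 and P80. In dendritic cells it was nearly undetected, with 6 UMIs in all 516 cells. The log2 fold change was 5.44 (SE 0.50, adjusted p = 9.05e-13). It was 6.39 without P45 and 4.63 without P50, and the call held in both. Cells with at least 1000 UMIs were thinned to 1000, here and below, and shallower cells were left out. These were 41 of 439 macrophages, among them 19 of 28 in P80, and 20 of 516 dendritic cells. Of the thinned cells, 17.1% of macrophages and 0.403% of dendritic cells had a Ctsl UMI, beside 0.869% of T cells.

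Ctsd, on chr7:142375911-142388038 (minus strand), is the chief aspartic protease of the lysosome. Macrophages had 428 CPM in P50_Depil5D and 775, 893, 91.5 and 99.9 CPM in P45, P50, P63 and P80, where the P63 and P80 values rest on 5 and 3 UMIs. Dendritic cells had 23.5 CPM in P50_Depil5D and 35.1, 55.5, 0 and 50.2 CPM in P45, P50, P63 and P80. Macrophages were higher within every library, but their P63 and P80 values were far below those of the other 3 libraries. The log2 fold change was 3.63 (SE 0.34, adjusted p = 2.49e-12).

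Ctsc, on chr7:88278085-88310888 (plus strand), encodes a dipeptidyl peptidase that activates the serine proteases of granules. It averaged 867 ± 199 CPM in macrophages and 240 ± 55.3 CPM in dendritic cells (SD, n = 5 libraries each), a log2 fold change of 1.43 (SE 0.22, adjusted p = 9.98e-07). The lowest macrophage library, P50_Depil5D at 532 CPM, was above the highest dendritic cell library, P45 at 280 CPM.

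Ctss, on chr3:95526786-95556403 (plus strand), did not separate the 2 classes. Macrophages had 1701 CPM in P50_Depil5D and 1645, 2394, 1025 and 966 CPM in P45, P50, P63 and P80. Dendritic cells had 1165 CPM in P50_Depil5D and 1063, 960, 1091 and 828 CPM in P45, P50, P63 and P80. The ranges overlap, and the log2 fold change of 0.27 (SE 0.24) gave an adjusted p of 0.530. It turned to −0.065 without P50 (adjusted p = 0.946), and to −0.98 (adjusted p = 4.51e-04) where classes were taken from Leiden clusters. The Leiden classes differ from the gates in their cells, as given above, so the latter value compares other sets of cells. Of cells thinned to 1000 UMIs, 70.6% of macrophages, 59.7% of dendritic cells and 1.44% of keratinocytes had a Ctss UMI, beside 5.12% of T cells.

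Ctsh, an aminopeptidase, and Ctsz, a carboxypeptidase, were likewise not called between the antigen-presenting classes. Ctsh averaged 368 ± 145 CPM in macrophages and 346 ± 91.4 CPM in dendritic cells (SD, n = 5 libraries each), with a log2 fold change of −0.20 (SE 0.22, adjusted p = 0.609). Ctsz averaged 359 ± 181 CPM in macrophages and 371 ± 139 CPM in dendritic cells, with a log2 fold change of −0.25 (SE 0.24, adjusted p = 0.545). Under the Leiden classes, which hold other cells, both were called lower in macrophages, at −0.70 (adjusted p = 0.0255) and −1.05 (adjusted p = 3.48e-04). Ctsh lies on chr9:90054152-90076089 (plus strand). Ctsz lies on chr2:174427493-174439039 (minus strand) and overlaps Nelfcd on the other strand, as Ctsb does Fdft1; the counting's use of strand is not given in the sources used here.

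**Figure D2:**
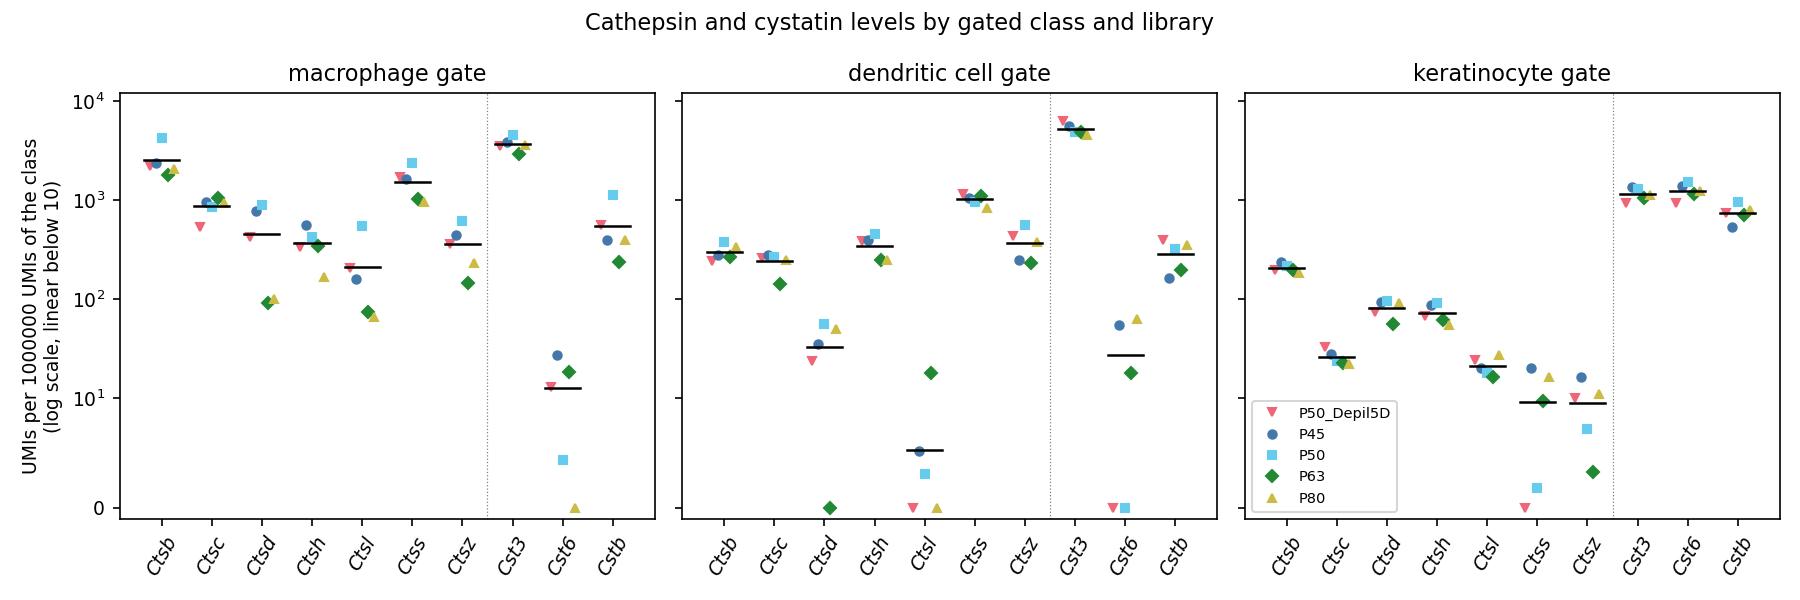
Level of each of the 10 genes (y axis, UMIs per 1000000 UMIs of the class, log scale that is linear below 10) in the macrophage, dendritic cell and keratinocyte gates; each point is 1 library and each bar the mean of 5. Ctsb and Ctsl lie higher in macrophages than in dendritic cells in every library, Ctss spans 966 to 2394 in macrophages, 828 to 1165 in dendritic cells and 0 to 20.3 in keratinocytes, and Cst6 spans 931 to 1513 in keratinocytes.

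Cst3, on chr2:148871722-148875692 (minus strand), was the most abundant of the 10 genes in both antigen-presenting classes. It averaged 3722 ± 596 CPM in macrophages, 5274 ± 722 CPM in dendritic cells and 1155 ± 171 CPM in keratinocytes (SD, n = 5 libraries each). It was lower in macrophages than in dendritic cells in 5 of 5 libraries, by −0.85 on the log2 scale (SE 0.17, adjusted p = 1.32e-04). Macrophages had 3571 CPM in P50_Depil5D and 3867, 4597, 2947 and 3630 CPM in P45, P50, P63 and P80. Dendritic cells had 6385 CPM in P50_Depil5D and 5590, 4899, 4917 and 4581 CPM in P45, P50, P63 and P80. The ranges overlap slightly, between the highest macrophage value (P50) and the lowest dendritic cell value (P80), which come from different libraries.

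Set against the cathepsins, the transcript of Cst3 was scarcer in macrophages than in dendritic cells or keratinocytes. All 7 cathepsin genes summed to 7348 CPM in macrophages, 2401 CPM in dendritic cells and 437 CPM in keratinocytes. There were 0.539 Cst3 UMIs per cathepsin UMI in macrophages (0.461 to 0.802 over libraries), 2.29 in dendritic cells (1.83 to 2.55) and 2.70 in keratinocytes (2.30 to 2.89). The macrophage range did not overlap that of dendritic cells or keratinocytes. T cells had 0.737 with libraries pooled, and were below macrophages in 3 libraries, at 0.468 in P50_Depil5D, 0.399 in P50 and 0.344 in P63. Langerhans-like cells had the highest ratio of the 6 classes set out in this way, 6.90. In keratinocytes there were also 2.87 Cst6 and 1.59 Cstb UMIs per cathepsin UMI, so each of the 3 cystatin transcripts outnumbered all 7 cathepsins together. These are ratios of transcripts and say nothing of protein or of activity.

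Cst6, on chr19:5344705-5349574 (minus strand), was the gene that set keratinocytes apart. It had 931 CPM in P50_Depil5D and 1377, 1513, 1149 and 1249 CPM in P45, P50, P63 and P80. Macrophages averaged 12.6 ± 10.9 CPM and dendritic cells 27.1 ± 29.9 CPM (SD, n = 5 libraries each), and no library of either came near a keratinocyte value. The log2 fold change over keratinocytes was −6.50 in macrophages (SE 0.40, adjusted p = 7.01e-20) and −5.51 in dendritic cells (SE 0.34, adjusted p = 9.39e-20). Without P45 these were −7.35 and −6.92. Keratinocyte sums are not independent between libraries, so these SEs and p-values can be too small. Of cells thinned to 1000 UMIs, 2.01% of macrophages, 4.64% of dendritic cells and 22.5% of keratinocytes had a Cst6 UMI, beside 1.16% of T cells, so most keratinocytes showed none at that depth. In P45 alone it was 2.95% of macrophages, 7.31% of dendritic cells, 27.9% of keratinocytes and 5.76% of T cells, and in P50 it was 0 of 95 dendritic cells and 1 of 347 T cells. Dendritic cells and T cells are spread differently over the libraries, so no difference is read from their pooled shares. Cst6 had been seen among the leading genes of the keratinocyte gate before it was described here, though it was not a gate marker.

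Cstb, on chr10:78425669-78427622 (plus strand), varied least between classes. It averaged 544 ± 346 CPM in macrophages, 286 ± 99.9 CPM in dendritic cells and 746 ± 153 CPM in keratinocytes (SD, n = 5 libraries each). Dendritic cells were lower than keratinocytes in 5 of 5 libraries, by −1.26 on the log2 scale (SE 0.22, adjusted p = 3.52e-06). Macrophages against dendritic cells gave 0.66 (SE 0.24, adjusted p = 0.0468), a call lost under 9 of 17 alternatives and gone without P50, at 0.24 (adjusted p = 0.743), without P45, at 0.69 (adjusted p = 0.0727), or without P63, at 0.67 (adjusted p = 0.0546). Macrophages against keratinocytes gave −0.59 (SE 0.22, adjusted p = 0.020), lower in 4 of 5 libraries, a call lost without P63, at −0.41 (adjusted p = 0.140).

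Against keratinocytes, 8 of the 10 genes were higher in macrophages and 2 (Cst6 and Cstb) lower, where 26.8% of the genes tested were higher and 26.8% lower. In dendritic cells 6 were higher than in keratinocytes and 4 (Ctsd, Ctsl, Cst6 and Cstb) lower, where 26.9% were higher and 28.4% lower. The medians were 2.75 and 1.52, beside −0.15 and −0.13 over all genes. The widest gap among the cathepsins was that of Ctss, at 6.998 in macrophages (SE 0.33, adjusted p = 3.28e-24) and 6.73 in dendritic cells (SE 0.33, adjusted p = 7.05e-24), followed by Ctsz at 5.02 and 5.27 and Ctsc at 4.89 and 3.46. Keratinocytes had 0 to 20.3 CPM of Ctss and 3.24 to 16.2 CPM of Ctsz.

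What keratinocytes did have was Ctsb, Ctsd and Ctsh. Ctsb was at 199 CPM in P50_Depil5D and at 236, 217, 197 and 186 CPM in P45, P50, P63 and P80. Ctsd was at 73.5 CPM in P50_Depil5D and at 92.6, 95.7, 56.2 and 91.0 CPM in P45, P50, P63 and P80. Ctsh was at 67.7 CPM in P50_Depil5D and at 87.2, 92.1, 61.6 and 54.6 CPM in P45, P50, P63 and P80. Ctsb was thus above the other 2 in every library, while Ctsd and Ctsh overlapped. Of cells thinned to 1000 UMIs, 78.6% of macrophages, 26.6% of dendritic cells and 15.3% of keratinocytes had a Ctsb UMI, beside 9.65% of T cells. Before thinning, with shallower cells included, these shares were 88.2%, 51.4% and 43.5%, beside 15.03% of T cells. The median depths of the 3 classes were 2015, 2552.5 and 2601 UMIs.

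The 2 cathepsins that dendritic cells had less of than keratinocytes were Ctsd and Ctsl. Ctsd averaged 32.9 ± 22.3 CPM in dendritic cells and 81.8 ± 16.7 CPM in keratinocytes (SD, n = 5 libraries each), a log2 fold change of −1.27 (SE 0.36, adjusted p = 0.00213) seen in 5 of 5 libraries. That call was lost when the library block was dropped, at −0.89 (adjusted p = 0.154). Ctsl averaged 5.23 ± 7.41 CPM in dendritic cells and 21.3 ± 4.58 CPM in keratinocytes, with a log2 fold change of −2.30 (SE 0.62, adjusted p = 0.00133), lower in 4 of 5 libraries, and −3.13 without P45. Ctsb differed little between them, by 0.67 (SE 0.20, adjusted p = 0.00446), a call lost with the stricter gate, at 0.37 (adjusted p = 0.0935), and with the gate by distinct markers, at 0.21 (adjusted p = 0.546). Without the cells that shared a barcode, the direction of all 10 genes held in the 3 class comparisons, and the sole call lost was that of Cstb in macrophages against keratinocytes, at −0.46 (adjusted p = 0.0893).

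**Figure D3:**
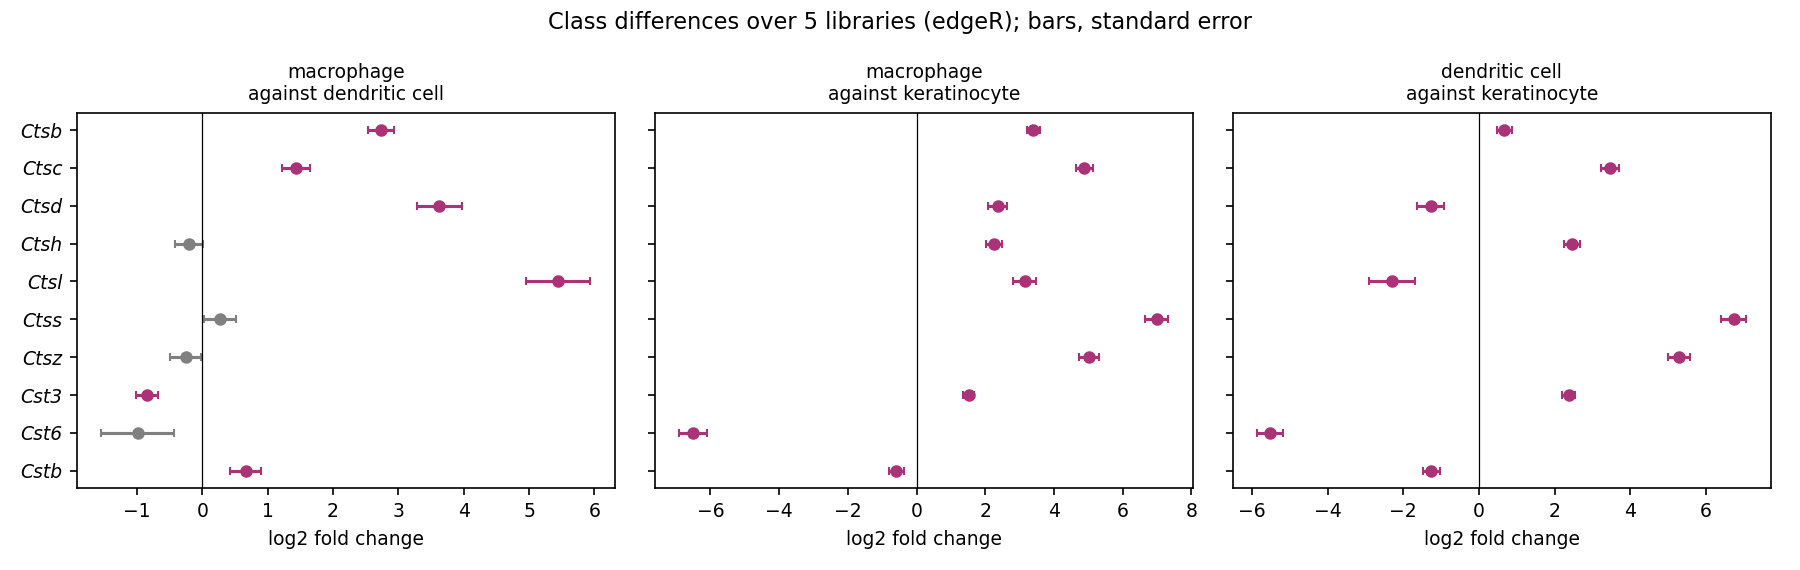
Log2 fold change (x axis) of each gene between classes over 5 libraries, with bars of 1 standard error; coloured points passed an adjusted p of 0.05 and grey points did not. Ctsb, Ctsc, Ctsd and Ctsl lie right of 0 in macrophages against dendritic cells while Ctsh, Ctss and Ctsz lie near it, and Cst6 lies far left of 0 against keratinocytes.

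Genes that work beside the cathepsins were counted from lists put together with earlier results of these data known. Of all genes tested, 7.75% were higher in macrophages than in dendritic cells and 8.98% lower, with a median log2 fold change of −0.025. Of 21 tested lysosomal hydrolases and their activators, 11 were higher in macrophages than in dendritic cells and 3 lower, with a median log2 fold change of 0.90. Examples were Pla2g15, a lysosomal phospholipase, at 3.01 (adjusted p = 2.72e-05), Grn, the precursor of granulins, at 2.70 (adjusted p = 3.71e-13), and Tpp1, a tripeptidase, at 2.07 (adjusted p = 5.54e-05). Among the lower ones, named after their values were seen, were Gm2a, an activator of ganglioside breakdown, and Npc2, a sterol carrier at 1066 CPM in macrophages and 1170 CPM in dendritic cells (log2 fold change −0.63). Of 15 lysosomal membrane, pump and sorting genes 9 were higher and 0 lower, with a median of 0.89, among them the tetraspanin Cd63 at 2.65 and the lysosomal membrane proteins Lamp1 at 1.455, Lamp2 at 1.18 and Scarb2 at 1.02. MHC class II genes went the other way, with 10 of 11 lower in macrophages and a median of −1.22. Cd74, the invariant chain that cathepsin S trims, was at 22360 CPM in macrophages and 47590 CPM in dendritic cells (log2 fold change −1.39, adjusted p = 5.52e-06), H2-Ab1 at −1.23, H2-Oa at −2.47, and H2-DMb2, which is itself a dendritic cell gate marker, at −3.07.

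Legumain (Lgmn), the asparaginyl protease that processes several cathepsins, followed the macrophage set. It had 840 CPM in macrophages, 35.04 CPM in dendritic cells and 11.9 CPM in keratinocytes, with a log2 fold change of macrophages over dendritic cells of 4.29 (SE 0.32, adjusted p = 1.18e-15). The serine carboxypeptidase cathepsin A (Ctsa) had 298, 112 and 24.5 CPM in the same classes, at 0.99 (adjusted p = 0.00682). Serpinb6a, a serpin that can block cathepsin G and other proteases, had 170 CPM in macrophages, 9.43 CPM in dendritic cells and 129 CPM in keratinocytes, and was the 1 of 3 tested inhibitors outside the cystatins to be called between macrophages and dendritic cells, at 3.804 (adjusted p = 6.28e-10). Of 14 other cysteine and aspartic cathepsins 1 passed the filter, and it was not called between macrophages and dendritic cells, and 0 of the 19 other cystatin genes measured passed. Against keratinocytes, 20 of the 21 hydrolases were higher in macrophages and 16 in dendritic cells, with 0 and 2 lower. Of all genes tested, 26.8% and 26.9% were higher in these 2 comparisons and 26.8% and 28.4% lower. The 3 tested partners of Cst6 in cornification, Sbsn, Dsg1a and the gate marker Krtdap, were lower in both antigen-presenting classes than in keratinocytes.

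Within the macrophage gate the protease set differed between states. Cells marked by Trem2, Spp1, Gpnmb, Cd9 and Lpl, genes of a lipid-handling state (74 cells), were set against cells with resident markers such as Mrc1, Folr2 and Cd163 (239 cells). Ctsd had 2253 CPM in Trem2-state cells and 273 CPM in resident cells, a ratio of 8.26 (95% exact conditional interval 6.84 to 10.0, counting error only). Ctss had 3939 and 1074 CPM in Trem2-state and resident cells (ratio 3.67, interval 3.29 to 4.09) and Cstb 1244 and 380 CPM (ratio 3.28, interval 2.71 to 3.97). Ctsb changed less, with 4517 CPM in Trem2-state cells and 2653 CPM in resident cells (ratio 1.70, interval 1.56 to 1.85), so that Ctss lay closer to Ctsb in the Trem2 state. Ctsc went the other way, with 604 CPM in Trem2-state cells and 1140 CPM in resident cells (ratio 0.529, interval 0.430 to 0.646, and 0.326 without P45), and Cst3 had a ratio of 1.10 (interval 1.015 to 1.19), whose interval reached 1 without P45 or without P50. Without P45 the Ctsd ratio was 5.50 (interval 4.04 to 7.55). Only P45 and P50 had at least 10 cells of each state, and in both Ctsd was higher in the Trem2 state, at 2714 against 256 CPM in P45 and 1691 against 446 CPM in P50. With 2 libraries an exact test cannot go below p = 0.5.

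Dendritic cell subsets differed in Cst3 and in several proteases. Mature cells, marked by Ccr7, Fscn1 and Ccl22 (37 cells), had 12890 CPM of Cst3, against 4512 CPM in type 2 cells, marked by Cd209a, Clec10a and Mgl2 (406 cells), a ratio of 2.86 (interval 2.70 to 3.03). In the 2 libraries with at least 10 cells of each, mature cells had 15260 CPM in P50_Depil5D and 11860 CPM in P45, against 4604 and 4574 CPM in type 2 cells of the same libraries. Type 1 cells, marked by Xcr1 and Clec9a (26 cells), had 10240 CPM of Cst3 (ratio to type 2 cells 2.27, interval 2.11 to 2.44). Ctss was level, with 1069 CPM in mature and 1053 CPM in type 2 cells (ratio 1.02, interval 0.838 to 1.22). Ctsc was at 144 CPM in mature and 284 CPM in type 2 cells (ratio 0.508, interval 0.292 to 0.826, and 0.245 to 1.07 without P45). Ctsh had 585 CPM in mature and 385 CPM in type 2 cells (ratio 1.52, interval 1.16 to 1.97), and Ctsz 543 and 324 CPM (ratio 1.68, interval 1.27 to 2.19). In type 1 cells Ctsc had 124 CPM against 284 CPM in type 2 cells (ratio 0.436, interval 0.207 to 0.811) and Ctsh 186 against 385 CPM (ratio 0.483, interval 0.268 to 0.805). Both intervals include 1 without P45. Ctsd rested on 7 UMIs in type 1 cells, at 86.6 CPM against 36.2 CPM in type 2 cells (ratio 2.39, interval 0.906 to 5.39).

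Keratinocyte subsets lay far apart in Cst6, which had 4929 CPM in 136 upper follicle cells, marked by Krt79, Krt17, Defb6, Klk10 and Sostdc1, and 110 CPM in 331 basal cells, a ratio of 44.9 (interval 37.7 to 54.0). Among Leiden clusters, Defb6, Cst6 and Krt79 led a cluster of 430 cells, and Sostdc1 was among the leading genes of another, of 259 cells. The gate can thus hold follicle cells of different kinds, and upper follicle is only its label. By library, upper follicle cells had 6155 CPM in P50_Depil5D and 4350, 4025, 5555 and 6229 CPM in P45, P50, P63 and P80, against 78.5 CPM in P50_Depil5D and 97.0, 55.7, 131 and 165 CPM in P45, P50, P63 and P80 in basal cells. The 2 sets were far apart in 5 of 5 libraries (exact two-sided permutation p = 0.063, the smallest possible). Because many keratinocytes shared barcodes between libraries, the libraries are not independent repeats, and nothing is concluded from that p. Without cells that shared a barcode the levels were 4757 CPM in 57 upper follicle cells and 77.0 CPM in 125 basal cells.

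Other genes differed between these subsets as well. Cstb had 1399 CPM in upper follicle cells and 404 CPM in basal cells (ratio 3.47, interval 3.11 to 3.86), and Ctsd 164 and 60.9 CPM in the same subsets (ratio 2.69, interval 2.01 to 3.63), both higher in 5 of 5 libraries. Without cells that shared a barcode Cstb had 1065 CPM in upper follicle cells and 301 CPM in basal cells (ratio 3.55), and Ctsd 153 and 87.9 CPM (ratio 1.73, interval 1.18 to 2.56). Ctsb was level, with 242 CPM in upper follicle cells and 233 CPM in basal cells (ratio 1.04, interval 0.865 to 1.25). Ctsl lay the other way, with a ratio of 0.287, and 0.181 without shared barcodes on 3 UMIs in upper follicle cells. Suprabasal cells, marked by Krt10, Krt1 and Krtdap (66 cells), had 527 CPM of Cst6 against 110 CPM in basal cells (ratio 4.80, interval 3.72 to 6.19). Of their 125 Cst6 UMIs 99 came from P45, where they had 825 CPM, against 144 to 288 CPM in the other 4 libraries, and without P45 the ratio was 1.93 (interval 1.203 to 3.007). Without shared barcodes it was 9.69 (interval 6.71 to 14.2), at 746 CPM in 24 suprabasal cells against 77.0 CPM in basal cells. Suprabasal cells had 67.4 CPM of Ctsb against 233 CPM in basal cells (ratio 0.289, interval 0.163 to 0.478). Activated basal cells, marked by Serpinb2, Fosl1 and Krt6a (57 cells), had a Cst6 ratio to basal cells of 0.247 (interval 0.104 to 0.501) and a Cst3 ratio of 0.559 (interval 0.478 to 0.651).

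**Figure D4:**
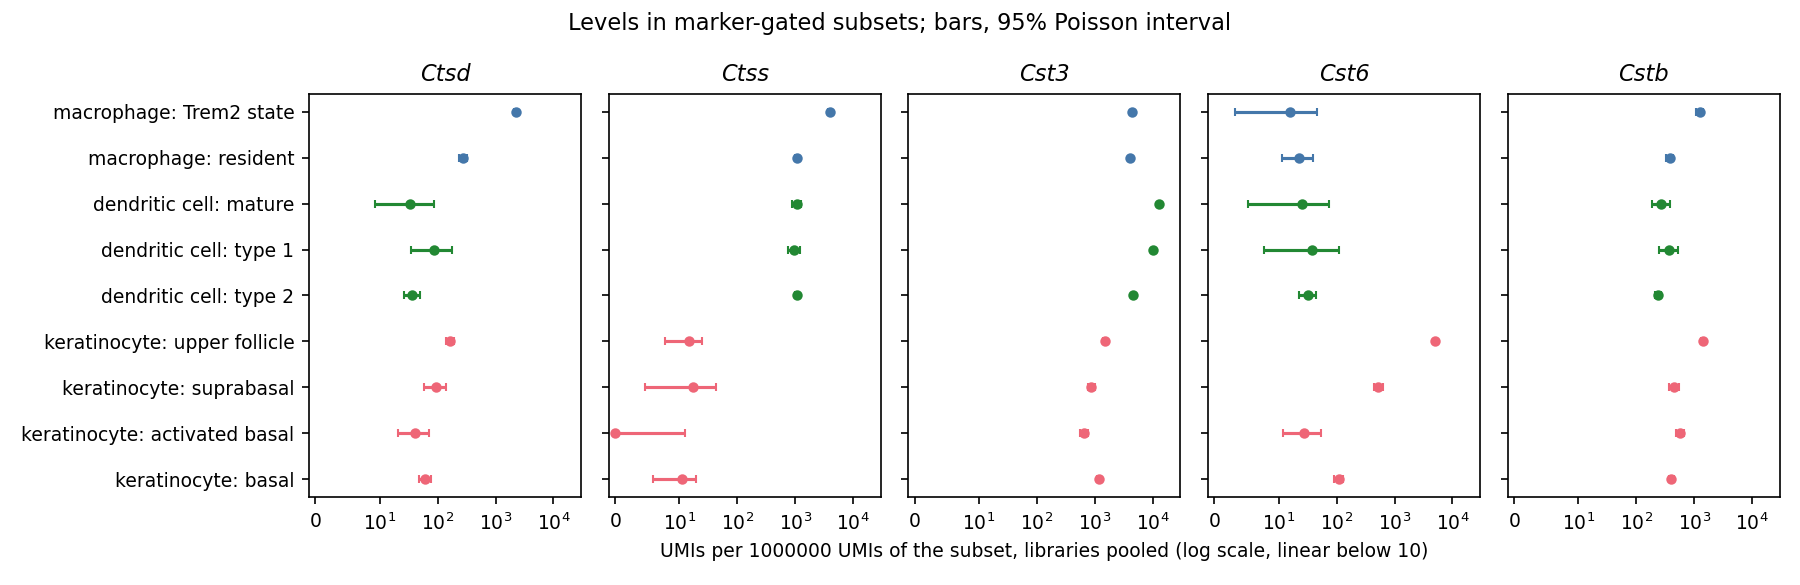
Level of 5 of the genes (x axes, UMIs per 1000000 UMIs of the subset with libraries pooled, log scale that is linear below 10) in marker-gated subsets of macrophages, dendritic cells and keratinocytes; bars are 95% Poisson intervals, which cover counting error only. Ctsd and Ctss are highest in Trem2-state macrophages, Cst3 in mature and type 1 dendritic cells, and Cst6 in upper follicle keratinocytes at 4929, against 110 in basal cells.

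Across libraries each group had 1 sample, so what follows compares libraries and not ages or treatments, and intervals cover counting error only. In P80 macrophages Ctsd had 3 UMIs or 99.9 CPM, against 775 CPM in P45 macrophages, a ratio of 0.129 (interval 0.0265 to 0.379). Ctsh had 167 CPM in P80 and 564 CPM in P45 (ratio 0.295, interval 0.0952 to 0.696), and Ctss 966 CPM in P80 and 1645 CPM in P45 (ratio 0.587, interval 0.391 to 0.849). Ctsb, Ctsc, Cst3 and Cstb had ratios of 0.867, 0.961, 0.939 and 1.01, with intervals that include 1. With TMM scaling the intervals of Ctsb, Ctsc and Cst3 excluded 1, with Ctsc at 0.626 (interval 0.412 to 0.915). That of Ctsb also did under Leiden clusters, and those of Ctsb and Ctsc under the gate by distinct markers. The interval of Cst3 excluded 1 when cells needed at least 500 genes. That of Cstb did with the stricter gate, at 2.43 (interval 1.59 to 3.60). P80 held 28 macrophages and P45 237, and 1 of the 28 against 43 of the 237 were in the Trem2 state. Without Trem2-state cells the ratio of Ctss was 0.818 (interval 0.543 to 1.19) and that of Ctsd 0.219 (interval 0.0263 to 0.804). With classes from Leiden clusters the Ctsd ratio was 0.278 (interval 0.00696 to 1.59). Past a fold of 2 with 10 CPM added, 4 of the 10 genes were lower in P80 macrophages (Ctsd, Ctsh, Ctsl with 2 UMIs and Cst6 with 0) and 0 higher, where 16.9% of 2154 genes were lower and 7.38% higher; with TMM scaling 6.18% of the genes past the fold were higher in place of 30.5%.

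For the cathepsins other than Ctsh, the macrophage level in P50_Depil5D was below that in P50 by more than the counting error. How many of all genes did so was not worked out, so this is not read as particular to the cathepsins. Over 2154 genes the median log2 ratio in macrophages was −0.097. The intervals of Ctsl, Ctss and Ctsz include 1 with classes from Leiden clusters, and also without Trem2-state cells. That of Ctsc includes 1 when cells needed at least 500 genes. Ctsb was at 2194 CPM in P50_Depil5D and 4241 CPM in P50 (ratio 0.517, interval 0.437 to 0.610), Ctsd at 428 and 893 CPM (ratio 0.480, interval 0.322 to 0.695), and Cstb at 558 and 1128 CPM (ratio 0.495, interval 0.350 to 0.686). P50 was the highest of the 5 libraries for all 3, so the undepilated library also stood above the other undepilated ones. Past the fold, 3 of the 10 genes were lower (Ctsd, Ctsl and Cstb), where 11.0% of genes were lower and 5.25% higher. Trem2-state cells were 5 of 37 macrophages in P50_Depil5D and 23 of 108 in P50. Without them the ratio of Ctsb was 0.645 (interval 0.533 to 0.777), of Ctsd 0.395 (interval 0.212 to 0.687), of Cstb 0.782 (interval 0.520 to 1.15) and of Ctss 1.14 (interval 0.877 to 1.46), in place of 0.711 for Ctss with them. That of Ctsl was 0.726 (interval 0.357 to 1.38), in place of 0.380 with them. That of Ctsz was 0.700 (interval 0.419 to 1.13), in place of 0.595 with them.

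In dendritic cells a smaller share of genes passed the fold than in macrophages, whose sums were thinner (77016 against 255746 UMIs in P50_Depil5D). The difference between classes was not tested. Cst3 had 6385 CPM in P50_Depil5D and 4899 CPM in P50 (ratio 1.30, interval 1.22 to 1.40), Ctss 1165 and 960 CPM (ratio 1.21, interval 1.03 to 1.43), and Ctsb 242 and 380 CPM (ratio 0.639, interval 0.463 to 0.874). Ctsz had a ratio of 0.758 (interval 0.593 to 0.965). The intervals of Ctsb and Ctsz include 1 with the stricter gate and the gate by distinct markers. That of Ctsz also does with TMM scaling, and that of Ctss under Leiden clusters. Mature cells, the subset richest in Cst3, were 10 of 92 dendritic cells in P50_Depil5D and 5 of 102 in P50. None of the 10 genes passed the fold, which 1.2% of 1750 genes did upward and 2.63% downward. Between P80 and P45, Cstb had 351 CPM in P80 and 165 CPM in P45 (ratio 2.13, interval 1.36 to 3.22) and was the 1 gene of the 10 past the fold, where 4.51% were higher and 8.0% lower.

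In keratinocytes 0 of the 10 genes passed the fold in either comparison, where 3.77% and 1.32% of 2120 genes were higher and lower in P80 than in P45, and 1.27% and 0.802% in P50_Depil5D than in P50. Cst6 had 931 CPM in P50_Depil5D and 1513 CPM in P50 (ratio 0.615, interval 0.554 to 0.683). Upper follicle cells were 20 of 166 keratinocytes in P50_Depil5D and 25 of 164 in P50. The ratio of Cst6 was 0.399 (interval 0.345 to 0.461) with 1 copy of each shared barcode and 0.128 (interval 0.102 to 0.160) without shared barcodes. Cst3 had 937 CPM in P50_Depil5D and 1300 CPM in P50 (ratio 0.721, interval 0.647 to 0.802), and 0.552 with 1 copy. In P80 against P45 the Cst6 ratio was 0.907 (interval 0.831 to 0.990), 0.861 (interval 0.779 to 0.951) with 1 copy, and 0.181 (interval 0.0961 to 0.310) without shared barcodes, which left 41 keratinocytes in P80 and 171 in P45. The Cstb ratio of 1.49 (interval 1.32 to 1.67) was 0.899 (interval 0.578 to 1.34) without shared barcodes, and that of Cst3, 0.837, was 1.07.

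**Figure D5:**
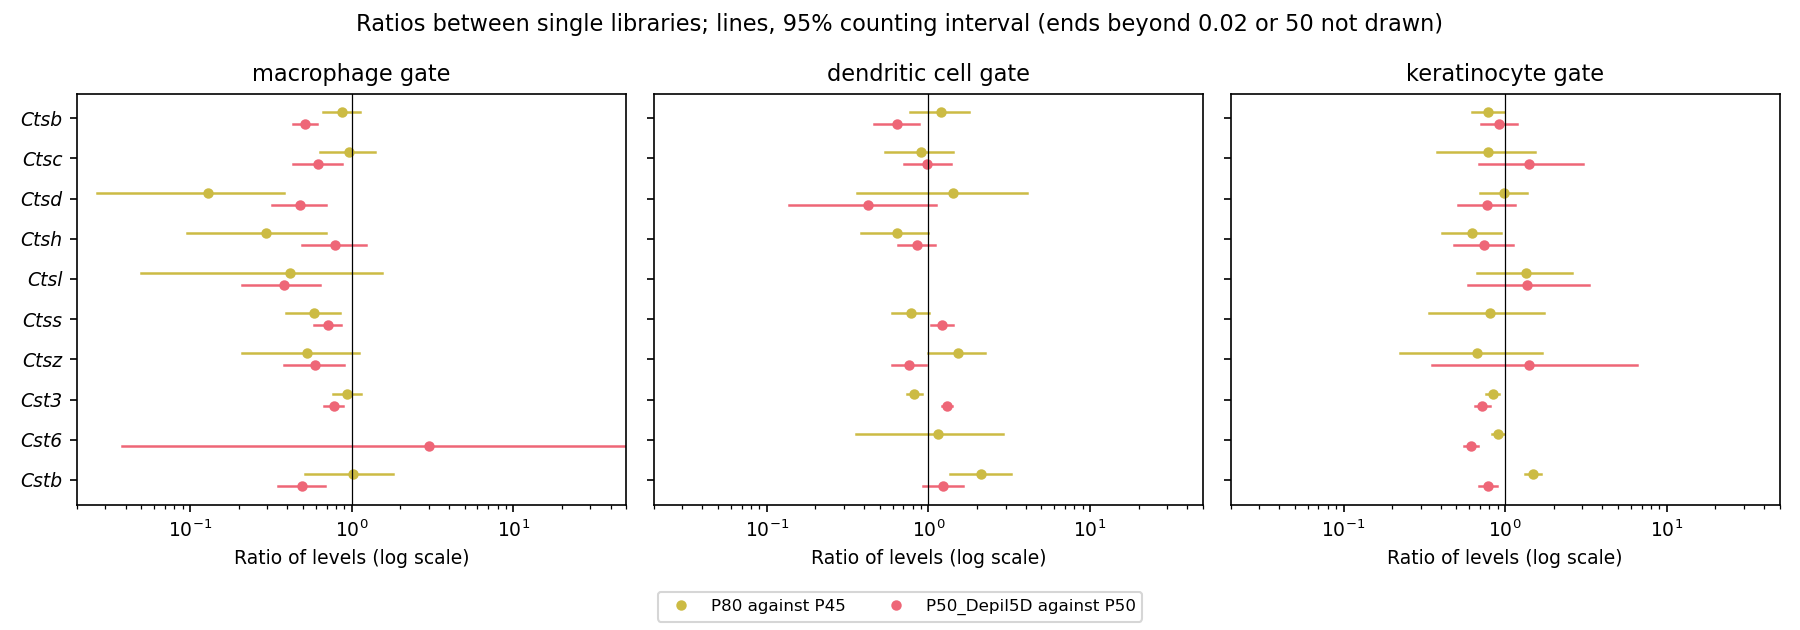
Ratio of a gene's level between single libraries (x axis, log scale) in each gated class, P80 against P45 and P50_Depil5D against P50; lines are 95% exact conditional intervals for counting error only, and a gene with 0 UMIs in either library has no point. Macrophage Ctsd lies furthest left at 0.129 in P80 against P45, and dendritic cell Cst3 lies right of 1 in P50_Depil5D against P50.

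Over 7 gated classes, macrophages led for Ctsb, at 2535 CPM, above fibroblasts at 509 CPM and with no overlap of libraries. Cst6 was highest in keratinocytes and Cst3 in Langerhans-like cells, at 11140 ± 1938 CPM (SD, n = 3 libraries), each above the next class without overlap. The other 7 genes had no such leader. The share of all genes with such a leader was not worked out, so this split is not read as particular to the cathepsins and cystatins. Fibroblasts, which should lack CD45, had the highest mean of Ctsl, at 480 CPM against 211 CPM in macrophages, and of Ctsz, at 411 CPM, in both cases overlapping the next class. For Ctsd the class next below macrophages was T cells, at 267 CPM. For Ctsc, Ctsd, Ctsh, Ctss and Cstb the leading class overlapped the one below it, and Cstb levels overlapped from class to class throughout.

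Genes with the most similar levels were sought over 36 class and library sums from 10 classes, by Pearson's r of log2(CPM + 10) among 8539 genes. These sums share libraries, so r is a description only. Ctss was most like Spi1, which encodes PU.1 (r = 0.962), and Rassf4 (r = 0.941), and Ctsh was also nearest to Spi1 (r = 0.856), then to Clec4a1. Ctsb was most like Grn (r = 0.893) and C4b (r = 0.867), and Ctsc was nearest to Ctsa (r = 0.909) and Laptm5 (r = 0.876). Ctsz was nearest to Npc2 (r = 0.848) and Hexa (r = 0.846), Ctsl to Igfbp4 (r = 0.825) and Colec12 (r = 0.799), and Cst3 to H2-DMa (r = 0.850) and Sult1a1 (r = 0.808). Cst6 was nearest to Sox9 (r = 0.882) and Gata6 (r = 0.867), both transcription factors of follicle keratinocytes. Ctsd and Cstb had no close match, with a highest r of 0.667 (Slc9a9, then Ly6e at 0.661) and 0.679 (Vamp4, then Vdac1 at 0.644).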

How the data were processed

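Live CD45+ dermal cells of 5 libraries, 1 per group, were counted by gene and barcode. The deposited matrices hold whole-number counts of UMIs, not normalized, on mm10, and Seurat is named as a tool, per the submitters' processing notes; the sources used here name no aligner and no method of cell calling. Gene positions are from an mm10 annotation.

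The members and lists were chosen with earlier results of these data known. Barcodes needed 200 or more genes and no more than 10% of UMIs from mitochondrial genes. Scrublet marked 21 doublets, 0.341% of the cells that passed, a rate too low for the caller to have worked; they were removed, and keeping them is an alternative. A cell entered 1 of 14 marker classes with at least 2 distinct markers, marker UMIs at least 2 times those expected from all cells and 2 times those of the next class; the gate was settled after marker counts were seen. In all, 2120 cells stayed ungated and 369 ambiguous. UMIs were summed per class and library with at least 10 cells and tested with edgeR 4.0.16 (R 4.3.3; quasi-likelihood, TMM, library as a block, 4968 genes after filterByExpr, Benjamini-Hochberg). On simulated counts this fit called 45% of genes changed by 1 and 99% of those changed by 2 on the log2 scale in macrophages against dendritic cells, and 0.21% of 4356 unchanged genes. The simulation gave every gene the same dispersion, had no differences between libraries, and changed only genes of at least 50 CPM. These rates therefore need not hold for the real counts. The p-values measure the spread between these libraries only, and intervals are at 95%. The fit takes the keratinocyte sums as independent, which the shared barcodes speak against. Genes named from the lists are those of largest change between macrophages and dendritic cells among genes of at least 50 CPM in a class. Some list genes are not reported here. Alternatives were DESeq2 1.42.0, Leiden clusters (scanpy 1.11.5), stricter gates, other filters, each library left out, and sums without shared barcodes, with 1 copy of each, without cells of low ribosomal pseudogene share and without Trem2-state cells; the gate by distinct markers, the single copies, the sums without Trem2-state cells and all alternatives for cell subsets were added after the data were seen.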

Additional observations from a re-analysis of the deposited data

Results flagged for a closer look

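In 30 sets of 5 within-library differences between classes, 3 had a library far from the other 4; chance marks about 1 in 20 such sets. The log2 ratio of Ctsb in macrophages over keratinocytes was 4.229 in P50, against 3.127 to 3.406 in the others. That of Ctsc was 3.652 in P50_Depil5D, against 4.691 to 5.011. That of Ctsd in macrophages over dendritic cells was 0.868 in P80, where macrophages had 3 Ctsd UMIs, against 3.344 to 4.12.

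For 2 genes the classes moved in opposite directions between P50_Depil5D and P50; the difference between classes was not tested. Ctss had a ratio of 0.7105 in macrophages and 1.214 in dendritic cells, and 1.136 in macrophages without Trem2-state cells. With classes from Leiden clusters both Ctss intervals include 1, at a ratio of 0.951 in macrophages and 1.019 in dendritic cells. Cst3 had a ratio of 0.7768 in macrophages, 1.303 in dendritic cells and 0.7206 in keratinocytes. Its macrophage interval includes 1 under Leiden clusters and under the gate by distinct markers.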

How the results depend on the processing

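No paired analysis was possible because each group is 1 library, so that the number 1 they share pairs nothing across groups. Over 17 alternatives, 487 of 510 class differences of the 10 genes kept direction and side of the threshold, 15 lost and 2 gained a call, and 6 reversed: macrophage against dendritic cell Ctsh at 0.003 (stricter gate) and 0.142 (gate by distinct markers), Ctss at −0.065 without P50 (−0.065 to 0.377 with a library left out) and −0.978 (Leiden clusters), Ctsz at 0.068 (distinct markers) and Cstb at −0.106 (Leiden). Of 548 library ratios 42 moved beyond the counting interval and 5 crossed 1: keratinocyte P80 against P45 Cst6 at 1.08 (Leiden) and 1.036 (distinct markers), Cst3 at 1.072 and Cstb at 0.8989 (without shared barcodes), and macrophage P50_Depil5D against P50 Ctss at 1.136 (without Trem2-state cells). The causes were not tested.

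Genes called between macrophages and dendritic cells numbered 831, and 462 without the library block, 1589 under Leiden clusters, 498 with distinct markers and 528 to 854 with a library left out, lowest without P50. Without the filter on low counts 4052 genes in place of 2662 were called between macrophages and keratinocytes, and 4229 in place of 2751 between dendritic cells and keratinocytes (4268 under Leiden clusters). Genes past the fold in P80 against P45 numbered 522 in macrophages (929 Leiden, 793 TMM), 219 in dendritic cells (106 Leiden, 378 stricter gate, 403 without shared barcodes, 891 distinct markers) and 108 in keratinocytes (166 without low-share cells, 386 without shared barcodes). In P50_Depil5D against P50 they numbered 349 in macrophages (684 Leiden), 67 in dendritic cells (22 Leiden, 146 stricter gate, 185 distinct markers, 119 with 1 CPM added) and 44 in keratinocytes (20 Leiden, 75 without low-share cells, 147 without shared barcodes, 136 with 1 copy, 21 distinct markers). TMM scaling moved the share of these that were higher to 6.18% from 30.5% for macrophages, 13.7% from 36.1% for dendritic cells and 61.6% from 74.1% for keratinocytes in P80 against P45, and to 18.2% from 32.4%, 45.8% from 31.3% and 72.7% from 61.4% in P50_Depil5D against P50. DESeq2's size factors moved the median log2 fold change of all genes to −0.30 from −0.13 between dendritic cells and keratinocytes. With 23 to 39 cells in P63 and P80, macrophage and dendritic cell levels there rest on few UMIs.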
